A study of Bos taurus with 16 samples.

Results

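Hepatic stellate cells are the vitamin A storing, pericyte-like cells that lie between hepatocytes and the sinusoidal endothelium. The 9 genes described here are used to mark these cells and fall into 4 roles: the surface receptors PDGFRA, PDGFRB and NGFR, the secreted proteins HGF and RELN, the contractile and cytoskeletal genes DES, ACTA2 and TAGLN, and the transcription factor HAND2. A gene was measured if a probe set carried its symbol and no other in the platform annotation, and its probe set with the highest mean over all arrays represented it. By this rule 8 of the 9 genes, called the members below, were measured, among 18087 named genes and 26773 probe sets. The only probe set annotated to ACTA2, smooth muscle actin, also carried ACTG2, so ACTA2 is not analysed here. Each of the 8 had 1 probe set, and that of RELN listed the symbol under 2 gene identifiers.

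The samples were livers of weaned Angus steers, castrated male cattle that started at 209 ± 29.4 kg and were allotted at random to 2 groups of 8. Growing steers were sampled at a final body weight of 301 kg and finishing steers at 576 kg, and every animal received the same cotton seed hull diet, fed individually for a gain of 1.5 kg per day. Body weight and, at a constant gain, time on feed therefore differ together between the groups, and their parts cannot be told apart. Liver RNA was measured with 1 array per steer, 16 arrays in all, as deposited log2 signals. As a check of the liver label, hepatocyte genes lay near the top of the signal range, such as ALB (albumin) with a mean of 13.75 in both groups.

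In a resting liver, stellate cells hold retinyl esters and keep a low contractile state. After injury they respond to platelet-derived growth factor (PDGF) through PDGFRB, divide, lay down collagen and take on smooth muscle actin and transgelin. HGF from these cells acts on hepatocytes through the receptor MET, and reelin and the neurotrophin receptor NGFR are used to tell stellate cells from other fibroblasts of the liver. HAND2 is a transcription factor of their mesenchymal lineage.

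The comparison asks how liver expression in heavier, finished animals differs from that in lighter, growing ones. The 3 surface receptors were lower in finishing steers. On the linear scale the signal of PDGFRA fell by 26.4%, that of NGFR fell by 25.8% and that of PDGFRB fell by 19.6%. The 2 secreted proteins, the 2 measured contractile genes and HAND2 did not pass the test. Of the 8 measured members 3 fell and 0 rose by limma, at a Benjamini-Hochberg adjusted p of 0.05 over all probe sets. By the same test 5.66% of all named genes were lower and 2.69% higher, and of all probe sets 4.3% and 2.34%. At an unadjusted limma p of 0.05, 5 members were lower and 0 higher. The rank-sum test, adjusted over all probe sets, called 1 lower (PDGFRA) and 0 higher. No share of all probe sets stands beside these counts, nor beside unadjusted or rank-sum counts of the lists below, so they are descriptions. The median difference of the members was -0.22 on the log2 scale, against 0.012 over all named genes. The difference was below 0 for 6 of the 8, the 3 receptors with HGF, DES and RELN. In RNA from whole liver, fewer stellate cells and less of a transcript per cell cannot be told apart.

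**Figure D1:**
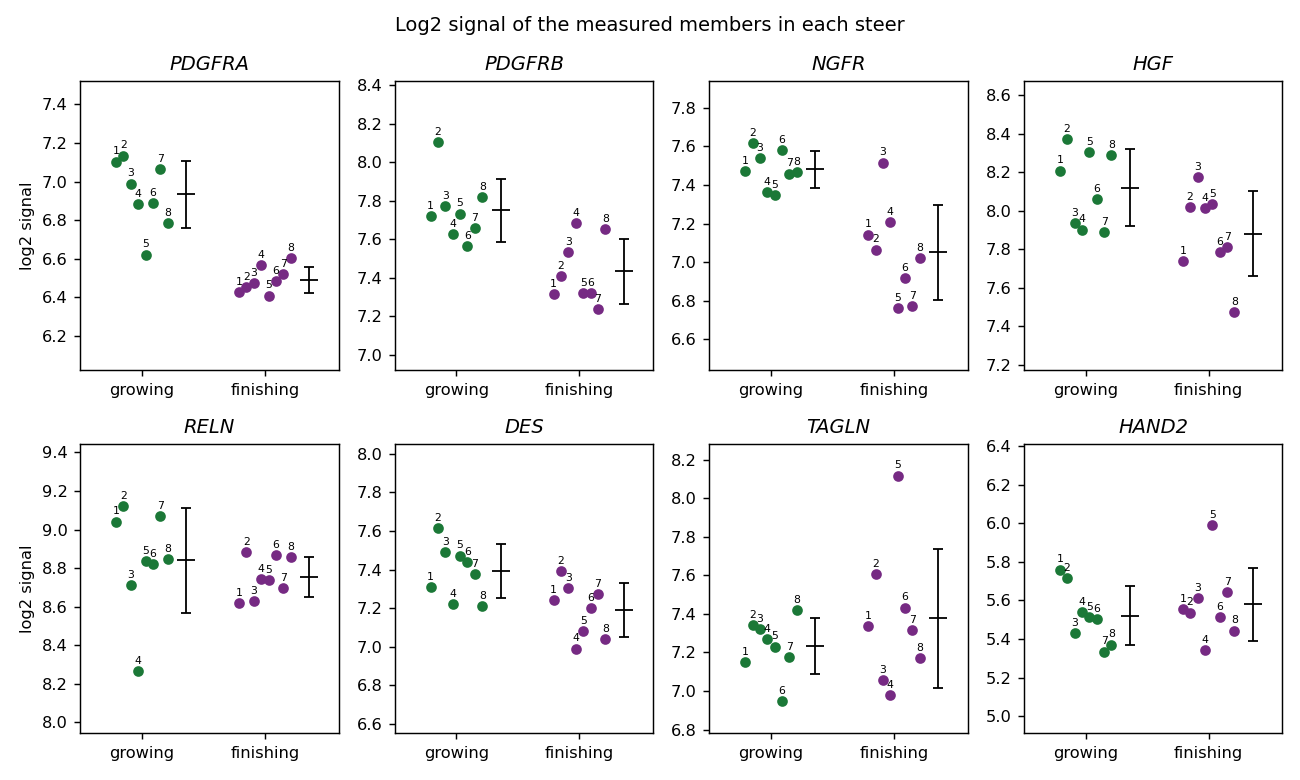
Log2 signal (vertical axis, a span of the same size in every panel) of the 8 measured members in each growing (green) and finishing (purple) steer, with the replicate number above each point and the group mean ± SD (n = 8) to its right. The groups are fully apart for PDGFRA, nearly so for NGFR, and overlap in the other panels, and TAGLN is uneven among finishing steers.

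PDGFRA, the alpha receptor for PDGF, is carried by quiescent stellate cells and by other fibroblasts of the liver. Its log2 signal ran from 6.62 to 7.13 with a median of 6.94 in growing steers, and from 6.41 to 6.60 with a median of 6.48 in finishing steers. The groups did not overlap, all 8 finishing values being the lower, which held for 0.717% of all probe sets. The means were 6.93 ± 0.17 and 6.49 ± 0.07 (SD, n = 8 per group), and the difference was -0.44 ± 0.07 on the log2 scale (SE; 1.36-fold lower; limma adjusted p = 0.00249). Growing steers were the more spread of the groups, and growing replicate 5, the lowest of them, lay just above finishing replicate 8. No array left out in turn ended this call, with adjusted p from 0.00099 to 0.0067.

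PDGFRB, the beta receptor, is the receptor through which stellate cells answer PDGF-BB. Growing steers had a log2 signal of 7.56 to 8.10 with a median of 7.73, and finishing steers one of 7.24 to 7.68 with a median of 7.36. Here 6 finishing steers lay below all growing steers, and finishing replicates 4 and 8 lay within the growing range. The difference was -0.32 ± 0.08 (SE, n = 8 per group; 1.24-fold lower; limma adjusted p = 0.0328). This call was close to the threshold: of the 16 possible omissions of a single array, 9 ended it. Among growing steers these were replicates 1, 2, 5 and 8 (adjusted p = 0.0522, 0.056, 0.0503 and 0.0628), and among finishing steers replicates 1, 2, 5, 6 and 7 (adjusted p = 0.0529, 0.0561, 0.0605, 0.0638 and 0.0667). Growing replicate 2 was the highest of all steers at 8.10, and without it the difference was -0.26.

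NGFR, the low-affinity neurotrophin receptor p75NTR, marks stellate cells and also Schwann cells. Its log2 signal was tightly grouped in growing steers, from 7.35 to 7.62 with a median of 7.47. In finishing steers it ran from 6.76 to 7.52 with a median of 7.04. Of the finishing steers 7 of 8 lay under the whole growing range, and the exception was replicate 3, at 7.52. The difference was -0.43 ± 0.09 (SE, n = 8 per group; 1.35-fold lower; limma adjusted p = 0.012). Without finishing replicate 3 it was -0.50 (adjusted p = 0.00162), and the call was kept without any other single array (highest adjusted p = 0.0255). By a rank-sum test the adjusted p of NGFR and of PDGFRB was 0.0522, past the threshold for neither.

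**Figure D2:**
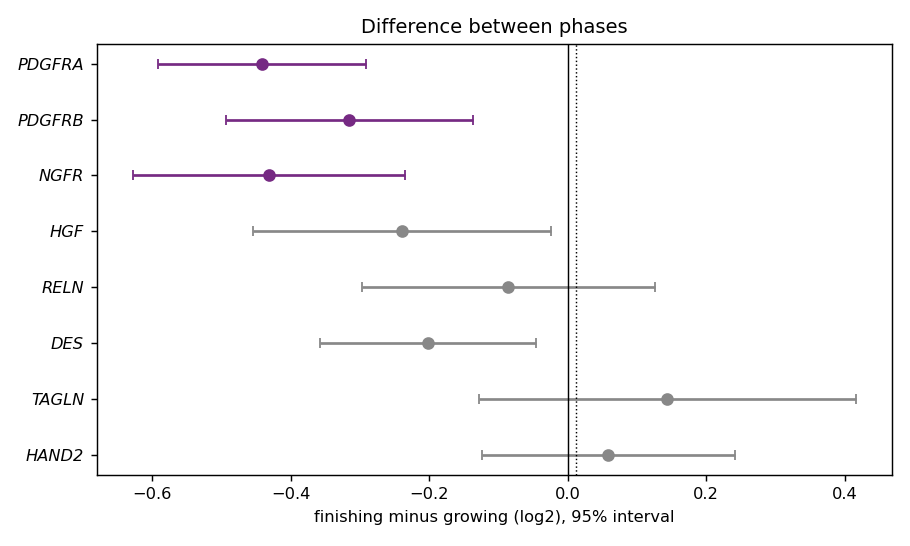
Finishing minus growing difference (horizontal axis, log2) of each measured member with its 95% interval from limma, purple where the adjusted p passed 0.05 and grey where it did not. The solid line is 0 and the dotted line the median of all named genes, 0.012. The intervals of PDGFRA and NGFR end at -0.29 and -0.23, below where that of TAGLN begins, at -0.13.

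HGF, hepatocyte growth factor, is made in liver mainly by stellate and endothelial cells. Its log2 signal ran from 7.89 to 8.37 (median 8.13) in growing steers and from 7.47 to 8.17 (median 7.91) in finishing steers. The groups overlapped, with 4 finishing steers below all growing steers. The difference was -0.24 ± 0.10 (SE, n = 8 per group) with a 95% interval of -0.45 to -0.02, and it did not pass over all probe sets (limma adjusted p = 0.181). The highest growing value again came from replicate 2 and the lowest finishing value from replicate 8.

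RELN encodes reelin, a large secreted glycoprotein best known from neuronal migration. Growing steers ran from 8.27 to 9.12 (median 8.84) and finishing steers from 8.62 to 8.88 (median 8.74), so all finishing values lay inside the growing range. The difference was -0.09 ± 0.10 (SE, n = 8 per group), with an interval of -0.30 to 0.13 and a limma adjusted p of 0.682. The growing spread came largely from replicate 4, the lowest at 8.27, and the group SDs were 0.27 and 0.11.

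DES encodes desmin, the muscle-type intermediate filament that marks stellate cells in rodents. Its log2 signal ran from 7.21 to 7.61 (median 7.41) in growing and from 6.99 to 7.39 (median 7.22) in finishing steers. Every finishing steer lay below the growing median, and 4 lay below all growing steers. The difference, -0.20 ± 0.07 (SE, n = 8 per group; interval -0.36 to -0.04), had a p of 0.0146 before adjustment and a limma adjusted p of 0.118.

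TAGLN encodes transgelin (SM22 alpha), an actin-binding protein of smooth muscle and of activated stellate cells. It ran from 6.95 to 7.42 (median 7.25) in growing steers and from 6.98 to 8.12 (median 7.33) in finishing steers. Finishing replicate 5 stood highest at 8.12, followed by finishing replicate 2 at 7.60, while finishing replicates 3 and 4 lay low at 7.06 and 6.98. The SD was 0.36 in finishing against 0.15 in growing steers. The difference was 0.14 ± 0.13 (SE, n = 8 per group; interval -0.13 to 0.42; limma adjusted p = 0.568), and 0.04 without finishing replicate 5.

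HAND2 had the dimmest probe set of the members relative to the array, with a mean over all arrays of 5.55 against a median probe set mean of 5.595, and without detection calls it cannot be said whether the transcript was above background. Its values ran from 5.33 to 5.76 (median 5.51) in growing and from 5.34 to 5.99 (median 5.55) in finishing steers, with full overlap apart from finishing replicate 5. The difference was 0.06 ± 0.09 (SE, n = 8 per group; interval -0.12 to 0.24; limma adjusted p = 0.755). Without finishing replicate 5 it was 0.0001.

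**Figure D3:**
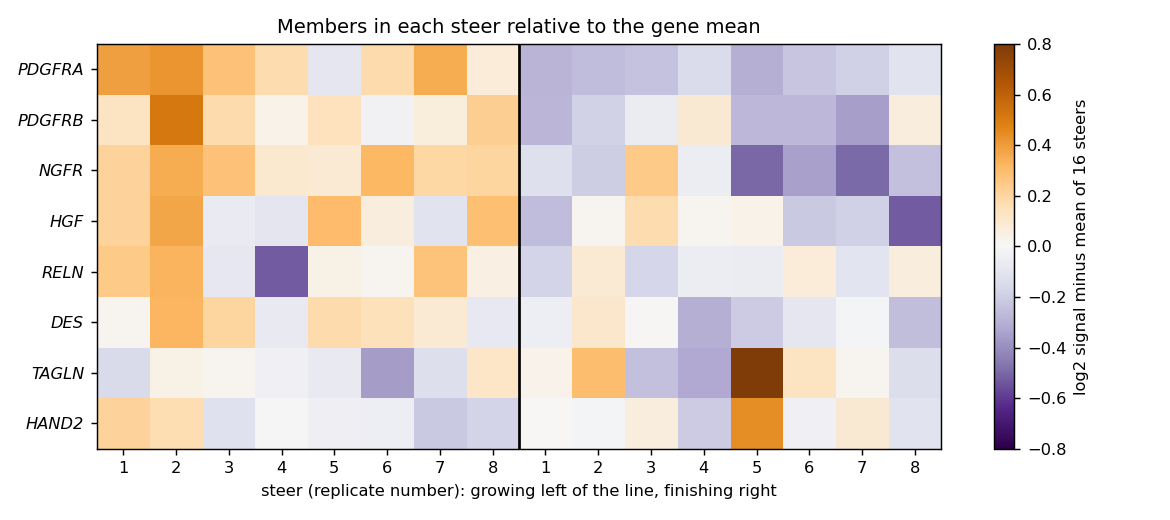
Log2 signal of each measured member (rows) in each steer (columns, replicate numbers) minus the mean of that gene over the 16 steers; orange is above the mean and purple below. Growing replicate 2 is above the mean in every row, though barely for TAGLN, and finishing replicate 5 is purple for PDGFRA, PDGFRB and NGFR but dark orange for TAGLN and orange for HAND2.

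The same steers recurred at the edges of these ranges. Among growing steers, replicate 2 lay above the group median for 8 of 8 members and was the highest of its group for 6, all but TAGLN and HAND2. For 13 further stellate cell markers it was above the median for 8 and the highest for 2. Among finishing steers, replicate 4 had the lowest DES, TAGLN and HAND2 and the highest PDGFRB. Finishing replicate 5 had the lowest PDGFRA and NGFR and the highest TAGLN and HAND2. Finishing replicates 5 and 6 also correlated least with their own group over all probe sets (median r of 0.978 and 0.981, against at least 0.984 for the other arrays). Without both, PDGFRA and NGFR still passed (limma adjusted p = 0.0139 and 0.046), PDGFRB did not (adjusted p = 0.117), and TAGLN differed by 0.01.

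Within a phase the members did not vary together to a degree that these steers could show. Deviations from the group means were correlated over the 16 steers for 28 pairs of members, and 0 pairs passed a permutation test with Pearson's r or Spearman's rho, adjusted over the 28 or unadjusted at 0.05. Pearson's r was above 0 for 21 pairs, with a median of 0.18 and a range of -0.59 to 0.58. PDGFRB and NGFR had r = 0.50 (permutation p = 0.0534, adjusted p = 0.653) and rho = 0.49 (permutation p = 0.0747, adjusted p = 0.600). That r was 0.43 and 0.53 without the 2 steers farthest from the median of PDGFRB or of NGFR, and 0.45 within growing and 0.58 within finishing steers. PDGFRB and PDGFRA had r = 0.39 (permutation p = 0.151, adjusted p = 0.653) and rho = 0.35 (permutation p = 0.193, adjusted p = 0.600), with r = 0.32 within growing and 0.69 within finishing steers. It was 0.09 without the 2 steers farthest in PDGFRB, on which it depended in part, and 0.28 without the 2 farthest in PDGFRA.

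TAGLN and HAND2 had the highest r, 0.58 (permutation p = 0.051, adjusted p = 0.653), but a rho of 0.16 (permutation p = 0.573, adjusted p = 0.764). It rested on the 2 steers farthest in TAGLN, without which r was -0.08, and it was 0.24 without the 2 farthest in HAND2. It was -0.11 within growing and 0.83 within finishing steers. TAGLN and NGFR had the lowest, -0.59 (permutation p = 0.0732, adjusted p = 0.653), with a rho of -0.39 (permutation p = 0.184, adjusted p = 0.600). It was -0.39 without the 2 steers farthest in TAGLN and -0.24 without those farthest in NGFR, and -0.12 within growing and -0.66 within finishing steers. DES, the other contractile member, had r = 0.03 with TAGLN (permutation p = 0.911, adjusted p = 0.944).

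The genes whose deviations were most like those of a member are given as a description, since each is the extreme of 18087 genes over 16 steers. For PDGFRA they were SLC10A2, TSC22D1 and OSBPL11 (r = 0.81, 0.76 and 0.75), and for PDGFRB they were MCC, MMS22L and KIAA0232 (r = 0.81, 0.80 and 0.80). Those of NGFR were CRIP2, DENND4A and ELF5 (r = 0.88, 0.87 and 0.87). HGF was most like CL43, a bovine collectin, ASB3 and PLA2G4B (r = 0.85, 0.84 and 0.84), RELN most like SMIM19, LOC515828 and ARNT2 (r = 0.90, 0.85 and 0.82), and DES most like NAPG, OR1J4F and C18H16orf86 (r = 0.83, 0.81 and 0.79). TAGLN was most like SACM1L, PDCD6 and GOLT1B, with r = 0.91, 0.90 and 0.89 over all steers, 0.93, 0.94 and 0.93 in finishing and 0.74, 0.65 and 0.70 in growing steers. Of these 21 genes, 5 also passed between phases by limma: MCC, CRIP2 and DENND4A, which fell by 0.46, 0.48 and 0.45 (adjusted p = 0.0223, 0.0214 and 0.0108), and SACM1L and PDCD6, named for TAGLN, which rose by 0.55 and 0.29 (adjusted p = 0.0274 for each). No smooth muscle gene of the lists below was among the 21.

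Genes that act with the members were then counted in lists of ligands, receptors, activators and targets. Of 122 measured genes in 10 such lists, 22 fell (18.0%) and 2 rose (1.64%) by limma, against 5.66% and 2.69% of all named genes. Of the 22, 8 came from the list of further stellate cell markers, which earlier results on these samples had shown to be lower. Without that list 14 of 109 genes fell (12.8%) and 2 rose (1.83%). The other lists, too, were chosen with earlier results known, so these shares are descriptions.

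**Figure D4:**
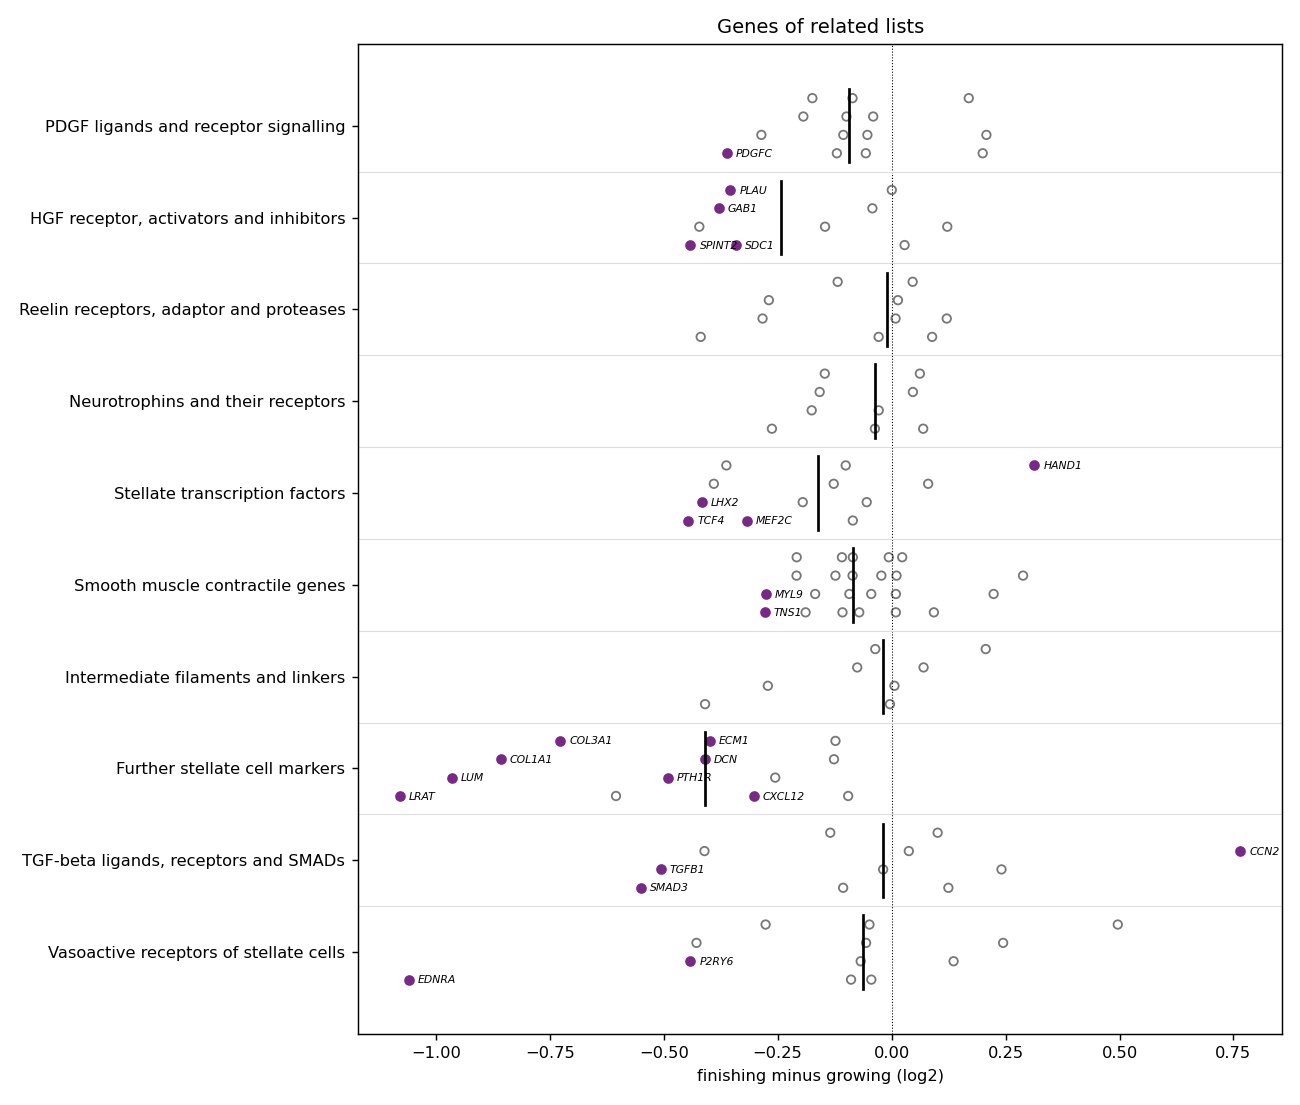
Finishing minus growing difference (horizontal axis, log2) of every measured gene in 10 lists of related genes; filled points passed an adjusted p of 0.05 and are named, open points did not, and the black bar is the list's median. The list of further stellate cell markers has all 13 genes below 0, while reelin, neurotrophin and intermediate filament lists have no filled point.

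Of 14 PDGF ligands and receptor signalling genes 1 fell and 0 rose, with a median difference of -0.09. PDGFC, a ligand of PDGFRA, was the one that fell, from 6.96 to 7.26 (median 7.16) in growing to 6.55 to 7.02 (median 6.80) in finishing steers, a difference of -0.36 ± 0.07 (SE, n = 8 per group; limma adjusted p = 0.00672). PDGFB, whose homodimer PDGF-BB is the main ligand of PDGFRB, differed by -0.04 (adjusted p = 0.878) and PDGFA by -0.09 (adjusted p = 0.596). PDGFD had -0.29 (adjusted p = 0.115, and 0.0439 without finishing replicate 1). The receptor-like PDGFRL had 0.21 (adjusted p = 0.214), on a dim probe set with a mean over all arrays of 4.91. So of 4 PDGF ligands measured, only PDGFC passed.

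Around HGF, 4 of 10 genes fell and 0 rose, with a median of -0.24, but without finishing replicates 5 and 6 only 1 fell, and at an adjusted p of 0.01 the count was 0. SPINT2, a membrane inhibitor of the proteases that activate HGF, fell by 0.44 ± 0.10 (SE; adjusted p = 0.0124), without overlap between the groups. The MET adaptor GAB1 fell by 0.38 ± 0.09 (adjusted p = 0.0158), the protease PLAU (urokinase) by 0.35 ± 0.09 (adjusted p = 0.0237), and the heparan sulfate proteoglycan SDC1 (syndecan 1) by 0.34 ± 0.09 (adjusted p = 0.03), all by limma with n = 8 per group. The SDC1 call ended on leaving out any of 7 arrays, those of growing steers 1, 6, 7 or 8 or of finishing steers 5, 6 or 7 (adjusted p up to 0.063). Without finishing replicates 5 and 6, GAB1, PLAU and SDC1 did not pass (adjusted p = 0.0595, 0.0689 and 0.104), and by the rank-sum test PLAU did not (adjusted p = 0.0522). MET itself, the HGF receptor, differed by -0.42 ± 0.13 (adjusted p = 0.0672), and passed without growing replicate 3 or 4 or finishing replicate 3 (adjusted p = 0.0462, 0.0209 and 0.0286). It also passed with array weights, among brighter probe sets only and with probe sets averaged per gene (adjusted p = 0.0293, 0.039 and 0.0454). HGFAC, the HGF activator made by hepatocytes, differed by 0.12 (adjusted p = 0.336).

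Of 10 partners of reelin 0 passed in either direction by limma or the rank-sum test (1 was lower among brighter probe sets only, with probe sets averaged per gene or without finishing replicate 7), with a median of -0.01; at an unadjusted p of 0.05, 3 were lower and 0 higher. The receptors VLDLR and LRP8 differed by 0.01 and 0.09 (adjusted p = 0.927 and 0.469) on dim probe sets, with growing means of 4.26 and 4.51, and the adaptor DAB1 by -0.42 ± 0.19 (SE; adjusted p = 0.21). Of 9 measured neurotrophin genes 0 passed by limma or the rank-sum test (1 was lower without finishing replicate 3), 0 did so unadjusted, and the median was -0.04. Of these, 7 of 9 had a mean below the median probe set mean, among them BDNF, NTRK2 and NTRK3 (differences of 0.07, -0.16 and -0.18; adjusted p = 0.596, 0.327 and 0.249). SORT1, sortilin, a coreceptor of NGFR, had a difference of 0.06 (adjusted p = 0.839).

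Of 12 transcription factors of stellate cells and their lineage 3 fell and 1 rose. LHX2, a LIM homeobox factor that holds stellate cells quiescent in mice, fell by 0.42 ± 0.08 (SE, n = 8 per group; limma adjusted p = 0.00775), from 7.18 to 7.72 (median 7.37) in growing to 6.80 to 7.11 (median 7.01) in finishing steers, without overlap. TCF4, a basic helix-loop-helix factor, fell by 0.45 ± 0.08 (adjusted p = 0.00316), and MEF2C by 0.32 ± 0.08 (adjusted p = 0.0294). The MEF2C call was lost without growing replicate 1 or 8 or finishing replicate 2, 6, 7 or 8 (adjusted p up to 0.0621). HAND1, the paralog of HAND2, rose by 0.31 ± 0.07 (adjusted p = 0.0143), but on a dim probe set with means of 5.21 and 5.52, and it did not pass without finishing replicates 5 and 6 (adjusted p = 0.0515). GATA4 and TCF21, factors of quiescent stellate cells, differed by -0.36 and -0.20 (adjusted p = 0.0937 and 0.243), and GATA4 passed without finishing replicate 1 (adjusted p = 0.0297).

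Over all named genes, 5.66% were lower and 2.69% higher by adjusted limma p. Among genes of the smooth muscle contractile apparatus, 6 were lower and 1 higher at an unadjusted limma p of 0.05. Of 23 measured, 2 fell and 0 rose, with a median of -0.09: MYL9, a myosin light chain, by 0.28 ± 0.06 (SE; adjusted p = 0.0115), and TNS1, tensin, by 0.28 ± 0.07 (adjusted p = 0.0284), both by limma with n = 8 per group. TNS1 was lost without growing replicate 2 or 7 or finishing replicate 5, 6 or 7 (adjusted p up to 0.0599). MYH11, smooth muscle myosin, ran from 7.63 to 8.39 (median 7.98) in growing and 7.71 to 8.33 (median 7.98) in finishing steers, a difference of 0.02 (adjusted p = 0.928). CNN1, calponin, differed by 0.29 ± 0.19 (adjusted p = 0.406), and its highest finishing values, 6.89 and 6.86, came from replicates 5 and 2, the same animals that were highest for TAGLN. The transcription factor SRF and its coactivator MYOCD, which drive these genes, differed by 0.09 and by -0.01 (adjusted p = 0.64 and 0.967). ACTG2, read from a probe set that carries it alone, differed by -0.11 (adjusted p = 0.783). The probe sets of MYOCD and ACTG2 were dim, with means over all arrays of 4.521 and 4.855.

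Among intermediate filament genes 0 of 8 passed by limma or the rank-sum test, and 1 was lower and 1 higher at an unadjusted p of 0.05. VIM, vimentin, differed by -0.41 ± 0.12 (SE; adjusted p = 0.0527), close to the threshold and past it without growing replicate 5 or finishing replicate 5 or 7 (adjusted p = 0.0492, 0.0234 and 0.0451). It also passed with quantile normalisation, a robust variance trend, array weights, brighter probe sets only and probe sets averaged per gene (adjusted p = 0.0405, 0.0484, 0.0391, 0.03 and 0.0349), so that the count of the list was 1 under these. GFAP, an astrocyte filament also seen in quiescent stellate cells of rodents, differed by -0.04 (adjusted p = 0.831). Its probe set was dim, with a mean over all arrays of 5.36.

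Among receptors of vasoactive signals, EDNRA, the endothelin A receptor through which endothelin contracts stellate cells, fell more than any other measured gene of the 10 lists except LRAT. It fell by 1.06 ± 0.18 (SE, n = 8 per group; 2.08-fold lower; limma adjusted p = 0.00298). Its log2 signal ran from 6.69 to 7.76 (median 7.33) in growing and from 5.50 to 6.66 (median 6.09) in finishing steers, with no overlap. P2RY6, a nucleotide receptor, fell by 0.44 ± 0.08 (adjusted p = 0.00655), and the other 10 of these 12 receptors did not pass, with a list median of -0.06.

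Of 11 genes of transforming growth factor beta (TGF-beta) signalling 2 fell and 1 rose, with a median of -0.02. TGFB1, the ligand that drives collagen synthesis in stellate cells, fell by 0.51 ± 0.11 (SE, n = 8 per group; limma adjusted p = 0.0105) and its mediator SMAD3 by 0.55 ± 0.11 (adjusted p = 0.00948, and 0.0522 by the rank-sum test). CCN2, a matricellular protein and a target of TGF-beta and YAP signalling, went the other way and rose by 0.77 ± 0.13 (adjusted p = 0.0041), from 5.06 to 5.88 (median 5.50) in growing to 5.85 to 6.64 (median 6.18) in finishing steers. Finishing replicate 5 was again the highest.

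The further stellate cell markers, a list that earlier results on these samples had shown to be lower, are given for size only: 8 of 13 fell and 0 rose, with a median of -0.41. LRAT, LUM, COL1A1 and COL3A1 fell by 1.08, 0.97, 0.86 and 0.73 on the log2 scale (limma adjusted p = 0.000996, 0.000189, 0.00174 and 0.000996). The 3 receptors among the members changed less, by 0.32 to 0.44 in size, and the difference between those sizes was not tested.

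Markers of other cells that share these genes moved as follows. Median differences were -0.06 for vascular smooth muscle and pericytes, -0.25 for portal fibroblasts, 0.06 for mesothelium and 0.02 for Schwann cells. They were -0.15 for endothelium, -0.24 for Kupffer cells, -0.04 for cholangiocytes and -0.08 for hepatocytes, against -0.22 for the members. Of 10 vascular smooth muscle and pericyte markers 0 passed by limma or the rank-sum test (2 lower and 1 higher unadjusted), and their summed linear signal ranged from 919 to 1174 in growing and from 854 to 1060 in finishing steers. RGS5, a pericyte gene, differed by -0.60 ± 0.20 (SE; limma adjusted p = 0.0836, and 0.0207 without finishing replicate 4). Of 9 portal fibroblast markers 2 fell, CD34 by 0.26 and DPT by 0.34 (adjusted p = 0.0204 and 0.045). The CD34 probe set was dim, with a mean over all arrays of 5.13. The summed signal of this list was 548 to 613 in growing and 465 to 587 in finishing steers. Leaving out any of 14 of the 16 arrays, all but finishing replicates 5 and 7, ended the DPT call (adjusted p up to 0.0874). Of 5 mesothelial markers 0 passed by either test, with 1 lower unadjusted (304 to 372 against 320 to 411). In the Schwann cell list, which bears on NGFR, both S100B and SOX10, the defining factor, had dim probe sets, with means over all arrays of 5.35 and 4.95. S100B fell by 0.35 ± 0.09 (adjusted p = 0.0218), a call that ended when finishing replicates 5 and 6 were left out (0.06), and SOX10 differed by 0.06 (adjusted p = 0.767). The summed signal of 4 measured genes was 146 to 172 against 141 to 177.

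Endothelial markers fell for 2 of 8, PECAM1 by 0.34 and CDH5 by 0.38 (limma adjusted p = 0.0226 and 0.0238), while the rank-sum test called 0 of them, with summed signals of 4784 to 5238 in growing and 4315 to 5206 in finishing steers. Kupffer cell markers fell for 2 of 6, CSF1R by 0.72 and C1QA by 0.46 (adjusted p = 0.00763 and 0.0472), with summed signals of 7001 to 10402 and 4400 to 9255. Differences in this list ran from -0.72 to 0.48, with 4 of 6 below 0. For C1QA, too, 14 of 16 such omissions ended the call, all but those of finishing replicates 1 and 4 (adjusted p up to 0.0858). For 5 measured cholangiocyte markers 0 passed by either test, with 1 higher unadjusted and 1 past the threshold among brighter probe sets only (193 to 382 against 185 to 302). For 6 hepatocyte markers 0 passed by limma, 1 by the rank-sum test, 1 among brighter probe sets only and 2 with a robust variance trend, with 2 lower unadjusted (48695 to 50558 against 46739 to 49892). No list stood at 0, since array signals have no true 0. The part of these other cell types in the differences of PDGFRA, PDGFRB and NGFR was not tested.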

How the data were processed

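Liver RNA of 16 steers was hybridised to 1 array each. Per the labels' protocols, total RNA was extracted with Trizol and converted to biotinylated cRNA from oligo(dT)-primed cDNA. GCOS 1.2 and Partek 6.4 are named in the submitters' processing notes, with summarisation and normalisation not given in the sources used here. Each deposited value was read as the log2 signal of a probe set, from the range of 1.48 to 14.1, with array medians of 5.57 to 5.64, and was used unchanged. They carry no detection calls, so a change near the lower end may be compressed, and the number of arrays limits precision.

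Of 26773 probe sets, 18550 carried 1 distinct symbol in the platform annotation, 93 of them listing it more than once, 595 carried several and 7628 were unnamed here. Of the 18550, 18086 matched the RefSeq gene table (ARS-UCD2.0) by gene identifier.

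Finishing was compared with growing with lmFit and eBayes of limma 3.58.1 (R 4.3.3, 2-sided). P-values were adjusted over the 26773 probe sets after Benjamini and Hochberg, and errors of differences are its standard errors. The fit was tested on simulated data. Correlations used 100000 permutations within groups (NumPy 2.4.6). The members and lists were chosen with earlier results of these data known, and no list was tested as a set. Named list genes are those fixed by name and, per list, up to 4 past the threshold, taken by p. SOX10 was named after its value was seen, and ACTA2 is not analysed here. Replicate numbers name different animals. Same-numbered deviations correlated between -0.15 and 0.04, over 0.1 in 0 of 8 pairs, so no pairing by number was seen. This check cannot exclude a block shared by same-numbered steers, and a fit with the number as a block is among the alternatives. Alternatives are given in the closing section.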

Additional observations from a re-analysis of the deposited data

Results flagged for a closer look

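In 9 of 116 sets of 8 values, from 58 members and named list genes in both phases, the highest or lowest steer stood apart from the others by Dixon's criterion at 95%, a share of 7.76%, where chance gives about 1 in 20. Among the members, growing replicate 2 stood apart for PDGFRB at 8.10, against 7.82 for the next steer, and finishing replicate 5 for HAND2 at 5.99, against 5.64. High values also stood apart for PDGFRL in finishing replicate 7 (5.39) and for VLDLR in finishing replicate 2 (4.57). Low values stood apart for PDGFB (5.50) and VLDLR (4.13) in growing replicate 3, PDGFC in growing replicate 8 (6.96), HGFAC in growing replicate 4 (8.16) and GFAP in finishing replicate 6 (5.05). Without growing replicate 2 the PDGFRB difference was -0.26 (limma adjusted p = 0.056).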

How the results depend on the processing

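PDGFRA passed the test under every alternative run, with differences of -0.43 to -0.44 and, leaving out 1 array, of -0.49 to -0.41. NGFR kept its direction (-0.50 to -0.39 leaving out 1 array) but had adjusted p = 0.0522 by the rank-sum test and missed an adjusted p threshold of 0.01 (0.012), both at -0.43. PDGFRB (-0.35 to -0.26 leaving out 1 array) missed it by the rank-sum test (adjusted p = 0.0522), with a replicate block (0.0673) and at the 0.01 threshold (0.0328), all at -0.32, and without finishing replicates 5 and 6 (-0.28, adjusted p = 0.117). The count of members that fell was 2 to 3 leaving out 1 array, and 1 by the rank-sum test and at 0.01. DES, HGF, RELN, TAGLN and HAND2 passed under none of the alternatives and changed sign under none. HAND2 was dropped by the filter on dim probe sets.

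Probe sets called higher and lower numbered 626 and 1151, with 410 to 881 and 858 to 1324 leaving out 1 array. They were 390 higher by the rank-sum test, 268 and 642 with a replicate block, 112 and 319 at 0.01, and 288 and 654 without finishing replicates 5 and 6. Of the genes in the related lists, 14 fell with a replicate block and 12 at 0.01, against 22, and 1 rose, against 2, with the block, at 0.01, with dim probe sets removed and without finishing replicates 5 and 6. Of 27 named list genes past the threshold, 22 kept the call without any single array, and 10 (PLAU, GAB1, SDC1, HAND1, TNS1, CD34, DPT, CDH5, C1QA and S100B) lost it without finishing replicates 5 and 6. With a replicate block 11 of the 27 lost it (SPINT2, GAB1, SDC1, HAND1, MYL9, TNS1, SMAD3, CD34, DPT, C1QA and S100B) and RGS5 gained it (adjusted p = 0.0455). The block left 1 fallen gene around HGF, against 4, 0 of the contractile genes, against 2, and 1 of TGF-beta signalling, against 2. By the rank-sum test 8 lost it (PLAU, MEF2C, TNS1, SMAD3, DPT, PECAM1, CDH5 and C1QA), and at 0.01, 15 did. DPT lost it with quantile normalisation and C1QA with array median centring (adjusted p = 0.0557 and 0.0534). Pairs of members that correlated numbered 0 under each of 3 alternatives, Spearman's rho, quantile normalisation and leaving out those 2 steers. Adjusting over annotated probe sets only was added after seeing the data and changed no member's call. The causes of these changes were not tested. Where arrays were left out, the number of steers was smaller as well, and its part was not tested either.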
